A study of Mus musculus with 4 samples.

Results

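The genes described here encode secreted antimicrobial proteins of skin: the beta-defensins Defb1, Defb3, Defb4, Defb6 and Defb14, and lipocalin 2 (Lcn2), cathelicidin (Camp), lactotransferrin (Ltf) and lysozyme 2 (Lyz2). They were taken by gene symbol, and all 9 were present among the 23282 symbols of each deposited table. Gene expression had been profiled by 3′ RNA sequencing in skin of adult C57BL/6 mice, in 4 groups of 1 library each. Wild type (WT) and Egr1 knockout (KO) mice were either naive or challenged with house dust mite (HDM) extract. Egr1 encodes a transcription factor, and the series asks about its part in the response of skin to HDM, which is used to model atopic dermatitis. The treatment label of both naive groups is SDS, a detergent used to break down the barrier of the skin, and that of both HDM groups is SDS+HDM extract. The protocol describes shaved neck skin and both ears, 100 mg of HDM cream after SDS, and 2 applications a week for 3 weeks. Knockout mice came from crosses of Egr1-/- stock and were genotyped by PCR, and the allele is not described. Nor do the labels say whether a library came from ear or neck skin, from 1 animal or from a pool.

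Beta-defensins are small cationic peptides with paired cysteines that damage microbial membranes and can attract immune cells. Epidermal keratinocytes make some of them at all times and others after wounding, infection or exposure to cytokines such as interleukin 17, interleukin 22 and interleukin 1. Lcn2 binds bacterial siderophores and Ltf binds iron itself, so both withhold iron from microbes. Camp is stored in neutrophil granules and is also made by keratinocytes and mast cells, and Lyz2 is the lysozyme of macrophages, monocytes and neutrophils. In bulk skin, fewer cells of a type and less RNA per cell cannot be told apart.

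Deposited values had the form log2(x + 1), where x is proportional to reads, and whole reads were recovered from them. The libraries held 9444795 to 10130769 reads. Egr1 was not lower in the KO libraries: it had 1966 reads in WT naive, 3159 in KO naive, 1174 in WT HDM and 3494 in KO HDM skin. Since the labels do not say which part of the gene was disrupted, a 3′ tag checks no label, and the libraries are called knockout-labelled below. Both naive libraries carried transcripts of a Y-linked gene and both HDM libraries did not (Ddx3y, 1925 and 2430 reads against 1 and 1), so treatment and sex-linked transcripts cannot be told apart. Knockout-labelled naive skin had no read for 336 genes with at least 50 in all the other libraries, and for each other library the same count was 0 to 5. Salivary and lacrimal gland genes made up 75264 of every 1000000 reads (RPM) in WT naive and 8616 in knockout-labelled naive skin, against 171 and 167 in the WT and knockout-labelled HDM libraries. Of 10 epidermal keratinocyte markers none stood at 0 in any library, but knockout-labelled HDM skin stood apart in some. Krt2, a keratin of the upper epidermis, had 1 read there against 4493 in WT HDM skin, and Krt10 was 6.10-fold lower (5.90 to 6.31). Against WT HDM skin 4 of the 10 were 2-fold or more lower, 1 was higher (Krt15, 2.04-fold) and 5 differed less. Of the 11600 genes that passed the filter described below, 4.66% were lower and 3.06% higher. Markers of cartilage, which ears contain, summed to 6.63 RPM in knockout-labelled HDM skin against 1513 in WT HDM, 2613 in WT naive and 2264 in knockout-labelled naive skin. Their part in the differences between genotypes under HDM, those of Defb3, Defb4 and Defb14 among them, was not tested, and since the skin site is not given, it cannot be told apart from genotype here. A fold below compares scaled reads of single libraries, its interval is an exact 95% counting interval, and neither has a replicate check. Where a gene had no read, up to 3 were taken as possible, or 2.96e-05% to 3.18e-05% of a library's reads. Every bound against knockout-labelled naive skin would be too large if reads had been lost in that library. The 4 comparisons use each library 2 times and are not independent of each other.

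The beta-defensin members lie on mouse chromosome 8 (build mm10). Defb14 (19194357 to 19195212), Defb4 (19198706 to 19201545), Defb6 (19225478 to 19228209) and Defb3 (19293360 to 19295291) stand close together on the plus strand. Defb1 (21776599 to 21795185, plus strand) is farther along the chromosome, and each of these genes has 2 exons in its longest annotated transcript. Lcn2 is on chromosome 2 (32384633 to 32388252, minus strand), Camp and Ltf are on chromosome 9 (109847379 to 109849617, minus strand, and 111019271 to 111042767, plus strand), and Lyz2 is on chromosome 10 (117277331 to 117282321, minus strand). Promoter sequences from RefSeq (build GRCm38.p6, the assembly behind mm10) were matched for 6 members. The 250 bases before the RefSeq start are printed for Defb3, Defb6 and Lcn2, which were higher with HDM in both genotypes, and for Camp, which was lower in both. They are chr8:19293111-19293360 (plus strand), chr8:19225228-19225477 (plus), chr2:32387740-32387989 (minus) and chr9:109849457-109849706 (minus), each written 5′ to 3′ on the gene's strand. RefSeq starts can differ from the gene spans given above, which are from GENCODE. The Lcn2 window lies wholly inside its span and the Camp window partly, so these bases need not be upstream of the genes as placed above. The windows of Ltf and Lyz2, searched for motifs but not printed, also overlap their spans.
Defb3: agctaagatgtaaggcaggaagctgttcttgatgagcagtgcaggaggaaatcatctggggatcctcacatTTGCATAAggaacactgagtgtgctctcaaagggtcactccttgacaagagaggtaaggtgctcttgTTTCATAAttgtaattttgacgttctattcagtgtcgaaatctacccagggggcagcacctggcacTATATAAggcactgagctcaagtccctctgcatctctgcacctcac
Defb6: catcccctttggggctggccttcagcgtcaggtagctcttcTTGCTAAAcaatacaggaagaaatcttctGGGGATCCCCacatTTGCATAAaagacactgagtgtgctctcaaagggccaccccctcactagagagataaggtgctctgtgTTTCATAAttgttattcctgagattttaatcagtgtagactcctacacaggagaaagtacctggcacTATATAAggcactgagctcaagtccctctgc
Lcn2: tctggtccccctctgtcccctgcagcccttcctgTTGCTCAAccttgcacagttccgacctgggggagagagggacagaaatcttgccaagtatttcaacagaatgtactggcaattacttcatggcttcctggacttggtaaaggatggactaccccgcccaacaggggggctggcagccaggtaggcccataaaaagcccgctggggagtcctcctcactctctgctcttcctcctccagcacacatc
Camp: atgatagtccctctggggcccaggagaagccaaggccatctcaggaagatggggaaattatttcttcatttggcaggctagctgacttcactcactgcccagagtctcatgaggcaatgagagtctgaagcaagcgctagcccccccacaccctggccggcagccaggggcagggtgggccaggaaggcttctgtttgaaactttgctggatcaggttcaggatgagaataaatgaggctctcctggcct
Capitals mark matches, on either strand, to 7 motifs: NF-kB (its usual decamer), C/EBP (TTNNGNAA), AP-1 (TGANTCA), STAT (TTCNNNGAA), EGR (GCGNGGGCG), TATAAA and TATATAA. Matches to the last pair can overlap.

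The promoters of Defb3 and Defb6 were alike, with 83.8% identity over 222 aligned columns. Their longest shared run had 40 bases and held the TATATAA match, which began 46 bases before the start of Defb3 and 31 before that of Defb6. The run is printed because few promoters held it: among 32851 promoter sequences it occurred in those of 4 genes, Defb3, Defb6, Defb7 and Defb8. Whether it marks a promoter type of this gene cluster was not tested.
Shared run: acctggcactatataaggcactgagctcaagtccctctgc
TATATAA was present in 3.04% of all promoters. The C/EBP letters stood in 5 of the 6 member promoters (3 matches in Defb6, 2 in Defb3 and 1 in Lcn2) and in 36.8% of all. The NF-kB letters stood in that of Defb6 alone and in 7.25% of all. No member promoter held the EGR, AP-1, STAT or TATAAA letters in this window, which 4.70%, 6.75%, 7.02% and 12.4% of all promoters did. A match is a run of letters and was not tested as a binding site.

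Defb14, the mouse relative of human beta-defensin 3, had log2 values of 6.33 in WT naive, 8.46 in knockout-labelled naive, 10.34 in WT HDM and 8.91 in knockout-labelled HDM skin, from 75, 375, 1205 and 511 reads. Its lowest level was in WT naive and its highest in WT HDM skin, with both knockout-labelled libraries between them. With HDM it was higher by 16.4-fold in WT skin (13.0 to 21.0) and by 1.37-fold in knockout-labelled skin (1.19 to 1.57). Without HDM the knockout-labelled library exceeded WT 4.43-fold (3.45 to 5.76), and under HDM it was 2.71-fold lower (2.44 to 3.01). The HDM difference of scaled reads was thus smaller by -3.58 on the log2 scale in knockout-labelled than in WT skin (counting interval -3.97 to -3.20). With single libraries this was not tested across animals.

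Defb3, an inducible epithelial defensin, was close to absent without HDM. It had 1 read in WT naive, 0 in knockout-labelled naive, 928 in WT HDM and 138 in knockout-labelled HDM skin (log2 values 1.05, 0.00, 9.97 and 7.03). Both HDM libraries stood above both naive ones, and WT HDM stood highest. In WT skin it was 947-fold higher with HDM, with an interval of 170 to 37453 since the naive library held 1 read. In knockout-labelled skin it was at least 46.1-fold higher, a bound against the naive library in which many genes stood at 0. Under HDM the knockout-labelled library was 7.72-fold lower than WT (6.45 to 9.30).

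Defb4, another inducible defensin of the same cluster, had 38 reads in WT naive, 0 in knockout-labelled naive, 98 in WT HDM and 11 in knockout-labelled HDM skin (log2 values 5.36, 0.00, 6.74 and 3.50). Both knockout-labelled libraries were lower than both WT libraries. knockout-labelled skin was at least 14.3-fold lower than WT when naive and 10.2-fold lower under HDM (5.47 to 21.2). With HDM Defb4 was 2.63-fold higher in WT (1.79 to 3.94) and at least 3.68-fold higher in knockout-labelled skin. The bounds against knockout-labelled naive skin would be too large if reads had been lost in that library, where many genes stood at 0.

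Defb6 and Defb1, 2 beta-defensins with reads in every library, differed less between genotypes than with treatment in each genotype. Defb6 had log2 values of 10.78 in WT naive, 10.26 in knockout-labelled naive, 11.67 in WT HDM and 12.26 in knockout-labelled HDM skin, from 1658, 1305, 3024 and 5213 reads. It was 1.86-fold higher with HDM in WT (1.75 to 1.98) and 4.01-fold higher in knockout-labelled skin (3.77 to 4.26). The knockout-labelled library was 1.43-fold lower than WT in naive skin (1.33 to 1.54) and higher under HDM, by 1.50-fold (1.44 to 1.57). Defb1, which many epithelia make constitutively, had 110, 101, 503 and 594 reads in the same order of libraries (log2 values 6.87, 6.58, 9.09 and 9.13). With HDM it was 4.67-fold higher in WT (3.79 to 5.79) and 5.90-fold higher in knockout-labelled skin (4.77 to 7.36). Its genotype folds, 1.23-fold lower in naive (0.929 to 1.63) and 1.03-fold higher with HDM (0.912 to 1.16), had intervals that include 1.

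**Figure D1:**
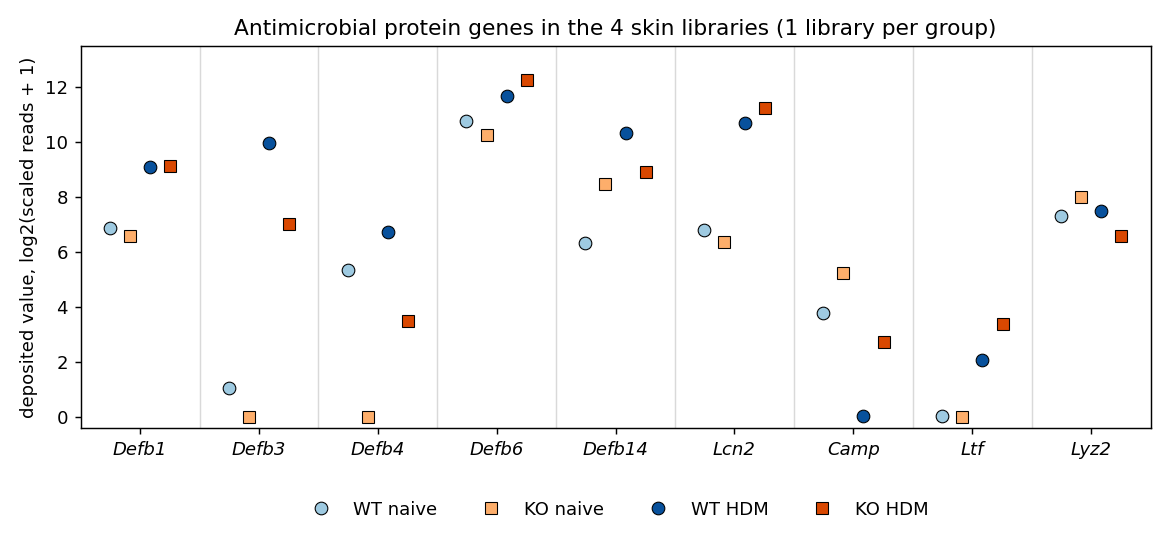
Deposited log2 values (log2 of scaled reads plus 1, y axis) of the 9 genes in the 4 libraries, each point 1 library (circles WT, squares knockout-labelled, pale naive, dark HDM), with no error bars since each group has 1 library. Lcn2, Defb1, Defb3, Defb6, Defb14 and, on 10 reads or fewer, Ltf stand higher in both HDM libraries than in both naive ones. Of these Defb14 has the smallest gap between the groups, from 8.46 in knockout-labelled naive to 8.91 in knockout-labelled HDM skin.

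Lcn2, the siderophore-binding lipocalin, was far higher in both HDM libraries than in both naive ones. The log2 values of Lcn2 were 6.81 in WT naive, 6.35 in knockout-labelled naive, 10.70 in WT HDM and 11.25 in knockout-labelled HDM skin, from 105, 86, 1541 and 2595 reads. Genotype made less difference than treatment. It was 15.0-fold higher with HDM in WT (12.3 to 18.4) and 30.3-fold higher in knockout-labelled skin (24.4 to 38.0). The knockout-labelled library was 1.38-fold lower in naive (1.03 to 1.85) and 1.47-fold higher with HDM (1.38 to 1.56). Ltf, the iron-binding transferrin relative of secretions and neutrophil granules, was near the limit of detection, with 3 reads in WT HDM, 10 in knockout-labelled HDM and 0 in either naive skin. It was at least 3.34-fold higher with HDM in knockout-labelled skin, and its difference between genotypes under HDM, 2.90-fold, had an interval of 0.748 to 16.4.

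Camp went the other way from most members. It had 12 reads in WT naive, 39 in knockout-labelled naive, 0 in WT HDM and 6 in knockout-labelled HDM skin (log2 values 3.77, 5.23, 0.04 and 2.72). Both naive libraries stood above both HDM libraries. It was at least 3.92-fold lower with HDM in WT and 6.48-fold lower in knockout-labelled skin (2.72 to 18.7), and 2.88-fold higher in knockout-labelled than in WT naive skin (1.48 to 6.04). Under HDM it was at least 1.74-fold higher in the knockout-labelled library.

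Lyz2 had log2 values of 7.30 in WT naive, 8.02 in knockout-labelled naive, 7.49 in WT HDM and 6.57 in knockout-labelled HDM skin, from 148, 276, 166 and 100 reads. The knockout-labelled libraries held its highest and its lowest level, with both WT libraries between. With HDM it was 1.14-fold higher in WT (0.912 to 1.44), an interval that includes 1, and 2.75-fold lower in knockout-labelled skin (2.18 to 3.49). knockout-labelled skin was 1.65-fold higher than WT when naive (1.35 to 2.03) and 1.91-fold lower under HDM (1.48 to 2.47). Lyz2 has a close copy, Lyz1, and of the 251 words of 50 bases in the last 300 bases of its transcript 21.9% also occur in Lyz1, so part of its reads could be shared. No such word of the other 8 members occurs in another annotated gene, though the annotated Defb14 transcript, 204 bases long, is a coding length and leaves its 3′ end unchecked. Lyz1 had 210, 1096, 53 and 26 reads in WT naive, knockout-labelled naive, WT HDM and knockout-labelled HDM skin. It was 3.88-fold lower with HDM in WT (2.86 to 5.35) and 42.0-fold lower in knockout-labelled skin (28.5 to 64.6).

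**Figure D2:**
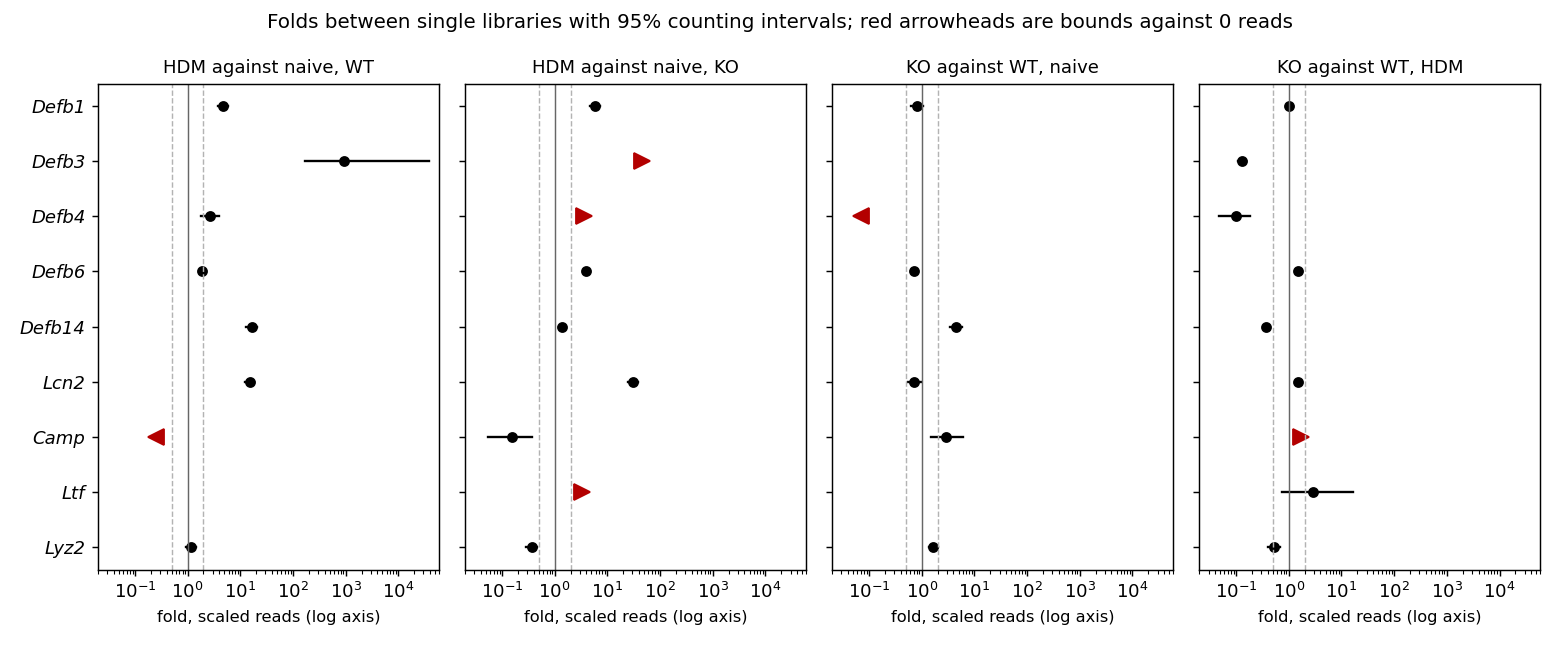
Folds of scaled reads (log x axis) of each gene in the 4 comparisons of single libraries, with bars for exact 95% counting intervals, dashed lines at 2-fold, and red arrowheads for bounds against a library at 0 reads. Defb3, Defb4 and Defb14 lie left of the 2-fold line in knockout-labelled against WT skin under HDM, at 7.72-fold, 10.2-fold and 2.71-fold lower.

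The filter kept genes whose mean log2 value lay above the median of all genes (5.11), and 5 members passed it: Defb1, Defb6, Defb14, Lcn2 and Lyz2. Defb3 missed it because both naive libraries were near 0. A gene was counted when its log2 values differed by 1 or more, a 2-fold difference. With HDM in WT skin 3 of the 5 were higher (Defb1, Defb14 and Lcn2), against 14.5% of all 11600 measured genes, and 0 were lower, against 12.7%. In knockout-labelled skin 3 of 5 were higher (Defb1, Defb6 and Lcn2), against 21.7%, and 1 lower (Lyz2), against 18.2%. The medians of the 5 were 2.21 in WT and 2.00 in knockout-labelled skin, beside 0.03 and 0.06 for all measured genes.

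Between genotypes the medians of the 5 members that passed the filter were smaller in size than with HDM. Defb3 and Defb4, which did not pass it, were 7.72-fold and 10.2-fold lower in knockout-labelled than in WT HDM skin. In naive skin 1 of 5 was higher in the knockout-labelled library (Defb14), against 13.6% of measured genes, and 0 lower, against 17.1%, with a median of -0.30 beside -0.03. Under HDM 0 of 5 were higher, against 3.06%, and 1 lower (Defb14), against 4.66%, with a median of 0.04 beside -0.01. Counted without the filter, over all 9 members and beside the 17633 genes with a read in any library, 6 were higher with HDM in WT skin (22.6% of genes) and 1 lower (17.2%). In knockout-labelled skin 6 were higher (33.7%) and 2 lower (16.3%). Among those counted as higher, Defb3, Defb4 and Ltf had 0 reads in knockout-labelled naive skin, and Ltf rested in WT skin on 3 reads against 0. Under HDM 2 members were higher in the knockout-labelled library (Camp and Ltf, at 10 reads or fewer, against 9.03% of genes) and 3 lower (Defb3, Defb4 and Defb14, against 13.0%). In naive skin 2 were higher (Camp and Defb14, 12.7%) and 2 lower (Defb4 and, on 1 read against 0, Defb3, 28.8%).

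The rest of the beta-defensin family was almost silent. Of 43 beta-defensin symbols in the files 33 stood at 0 in every library, and of the 24 annotated on chromosome 8 6 had 10 or more reads in any library: the 5 members and Defb8. Defb8 had 752 reads in WT naive, 0 in knockout-labelled naive, 0 in WT HDM and 5 in knockout-labelled HDM skin, so its reads came almost wholly from 1 library. Within WT skin it was at least 246-fold lower with HDM, and it was at least 283-fold lower in knockout-labelled than in WT naive skin. WT naive was also the library with the most salivary and lacrimal gland reads, and whether they moved together was not tested. In the last bases of the Defb8 transcript 9.66% of the 50-base words also occur in Defb4. Defb2, Defb30, Defb36 and Defb46 had at most 5 reads in a library.

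Beta-defensins together gave 275 RPM in WT naive, 179 in knockout-labelled naive, 612 in WT HDM and 640 in knockout-labelled HDM skin. Both HDM libraries stood close to each other and above both naive ones, but their make-up differed. Defb6 gave 52.4% of beta-defensin reads in WT HDM (51.1 to 53.7, Clopper-Pearson interval) and 80.5% in knockout-labelled HDM skin (79.5 to 81.5). It gave 62.9% in WT naive (61.0 to 64.8) and 73.3% in knockout-labelled naive skin (71.2 to 75.3). The WT naive values rest on Defb8: without it, an alternative chosen after seeing the data, Defb6 gave 88.1% there (86.5 to 89.5) and the beta-defensins 196 RPM, which turns the order of the naive shares.

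**Figure D3:**
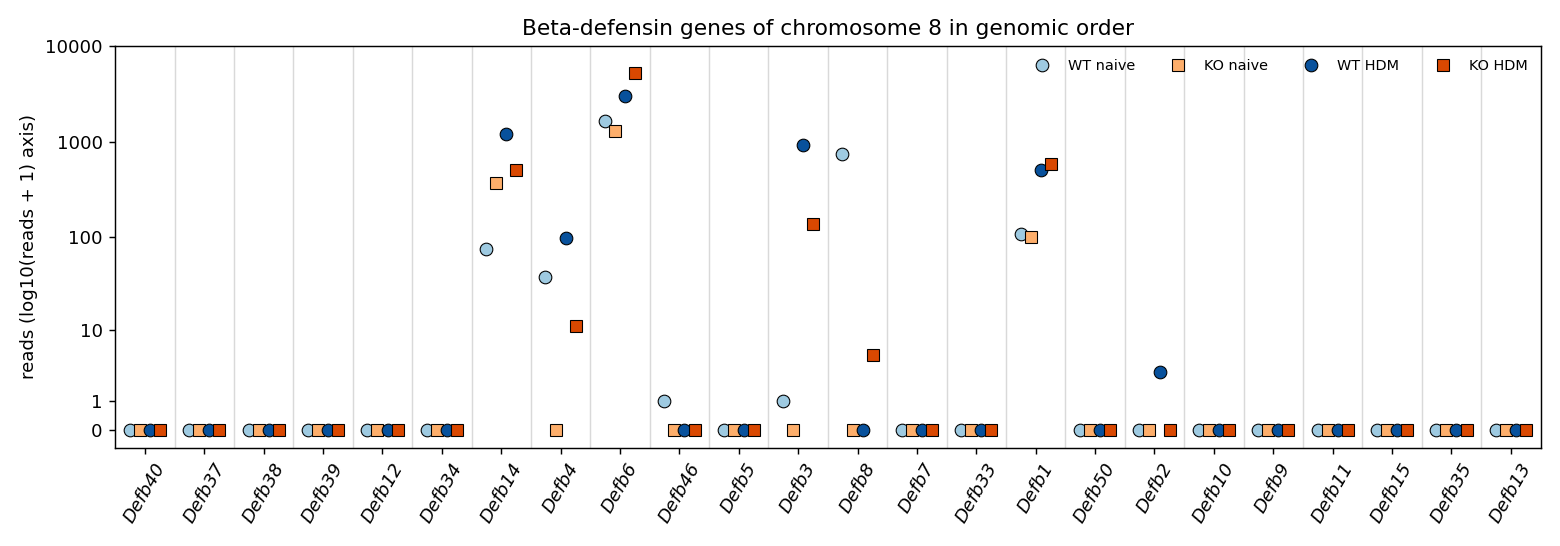
Reads (y axis, log10 of reads plus 1) of the beta-defensin genes of chromosome 8 in genomic order (x axis), each point 1 library (circles WT, squares knockout-labelled, pale naive, dark HDM). Only Defb14, Defb4, Defb6, Defb3, Defb8 and Defb1 reach 10 reads, and Defb8 does so in WT naive skin alone, with 752.

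Cytokines, receptors and regulators of transcription or RNA that are known to raise or to limit such genes were described as a list. It was chosen, like the lists that follow, with earlier results of these data known. Of its 22 measured genes 12 were 2-fold or more higher and 0 lower with HDM in WT skin (median 1.07), beside 14.5% and 12.7% of all measured genes, and 8 were higher and 1 lower in knockout-labelled skin (0.52), beside 21.7% and 18.2%. Zc3h12a, an RNase that limits inflammatory transcripts, was 14.8-fold higher in WT skin (12.1 to 18.3), and Il4ra, a receptor chain for the type 2 cytokines that can lower antimicrobial genes of skin, was 7.23-fold higher (5.83 to 9.06). In knockout-labelled skin Il1b and Zc3h12a, both at 0 reads when naive, were at least 333-fold and at least 289-fold higher. These bounds carry the same limit as those of Defb4. Tnfrsf1a, a TNF receptor, was 2.23-fold lower with HDM in knockout-labelled skin (2.07 to 2.40). Between genotypes the counts were nearer to those of all measured genes: 4 higher and 5 lower in naive knockout-labelled skin, beside 13.6% and 17.1%, and under HDM 0 of 22 in either direction, beside 3.06% and 4.66%.

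The cytokine genes Il17a and Il17f lay below the filter and are named here after their values were seen. Il17a had 72 reads in WT HDM skin and 0 in the other libraries, so under HDM it was at least 27.6-fold lower in the knockout-labelled one. Il17f had 113 reads in WT HDM and 6 in knockout-labelled HDM skin, 21.6-fold lower (9.63 to 60.2), and 0 in both naive libraries. Il22 had 5 reads in WT HDM skin and 0 elsewhere. These few reads were thus highest in the library in which Defb3, Defb4 and Defb14 were highest. None of the other members was highest there. Defb6 and Lcn2 had 5213 and 2595 reads in knockout-labelled HDM against 3024 and 1541 in WT HDM skin. Whether the cytokine and member values are linked was not tested.

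Other antimicrobial genes of skin and glands, 20 of which were measured, went both ways with HDM. In WT skin 6 were higher and 6 lower (median -0.07), beside 14.5% and 12.7% of measured genes, and in knockout-labelled skin 9 higher and 6 lower (0.01), beside 21.7% and 18.2%. S100a8 and S100a9, the zinc-binding calprotectin subunits, were 693-fold (599 to 807) and 198-fold higher (178 to 221) in WT skin. They were at least 16288-fold and 10926-fold higher in knockout-labelled skin, where they had 0 reads when naive. These bounds would be too large if reads had been lost in that naive library, where many genes stood at 0. Wfdc21, of the whey acidic protein family, was 5.61-fold lower with HDM in WT skin (5.19 to 6.07), and the iron carrier gene Trf was 4.85-fold lower (4.59 to 5.13). Wfdc2, of the same family as Wfdc21, was 10.8-fold lower with HDM in knockout-labelled skin (6.45 to 19.3).

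Under HDM 9 of these 20 genes were lower in the knockout-labelled library and 0 higher (median -0.80), beside 4.66% and 3.06% of measured genes. The peroxidase gene Lpo was 7.88-fold (6.13 to 10.3) and Wfdc12 4.22-fold lower (3.57 to 5.01). In naive knockout-labelled skin 8 were lower and 4 higher (median -0.39), beside 17.1% and 13.6% of measured genes. Of the 20, 5 had 0 reads there and some in WT naive skin. Lpo was lower there by at least 290-fold, and S100a9 by at least 122-fold, while Lyz1 was 4.63-fold (3.99 to 5.39) and Wfdc2 4.14-fold higher (2.89 to 6.08). In that library 21 of the 37 listed genes in the files stood at 0 reads, against 8 to 11 in the others. Reg3g, which encodes a lectin that binds Gram-positive bacteria and lay below the filter, is named after its values were seen: it had 174 reads in WT HDM, 9 in knockout-labelled HDM skin and 0 in both naive libraries.

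Measured receptors of these proteins were too few to describe as a group. Of 4 measured, 1 was higher and 1 lower with HDM in WT skin, beside 14.5% and 12.7% of all measured genes. In knockout-labelled skin 0 were higher and 2 lower, beside 21.7% and 18.2%. Slc22a17, a receptor for Lcn2, was 3.03-fold lower with HDM in WT (2.33 to 3.99) and 4.76-fold lower in knockout-labelled skin (3.49 to 6.62). Ccr2, a chemokine receptor of monocytes that some beta-defensins engage, was 3.86-fold higher with HDM in WT skin (3.35 to 4.45). It was 3.27-fold lower in knockout-labelled than in WT HDM skin (2.89 to 3.72). P2rx7, an ATP receptor linked to cathelicidin, was 5.31-fold lower with HDM in knockout-labelled skin (4.34 to 6.55) and 2.72-fold higher in knockout-labelled than in WT naive skin (2.31 to 3.21). Ccr6, a receptor that beta-defensins share with Ccl20, had 49, 39, 33 and 12 reads in WT naive, knockout-labelled naive, WT HDM and knockout-labelled HDM skin and did not pass the filter.

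Markers of cells that hold these proteins moved with the libraries too. The 17 neutrophil markers in the files made up 167 RPM in WT naive, 190 in knockout-labelled naive, 19727 in WT HDM and 8210 in knockout-labelled HDM skin. In the HDM libraries most of these reads were from S100a8 and S100a9, which keratinocytes also make, while Il1r2, a decoy receptor for interleukin 1, gave 937 of 1605 in WT naive and 1878 of 1882 in knockout-labelled naive skin. Counting the 16 with a read in any library, 11 were 2-fold or more higher with HDM and 3 lower in WT skin. Of all genes with a read, 22.6% and 17.2% were. In knockout-labelled skin 14 were higher and 1 lower, beside 33.7% and 16.3%. Examples chosen after their values were seen are Mmp8, a granule collagenase, with 124 reads in WT HDM, 213 in knockout-labelled HDM and 0 in either naive skin, and the chemokine receptor Cxcr2, with 196, 163, 16 and 3 in WT HDM, knockout-labelled HDM, WT naive and knockout-labelled naive skin. Of the 17, 4 stood at 0 in WT naive, 14 in knockout-labelled naive, 2 in WT HDM and 2 in knockout-labelled HDM skin. Mpo, the myeloperoxidase of neutrophil granules, had 0 reads in every library. Elane, the granule elastase, had 5 in WT naive skin and 0 elsewhere, and Ngp, a granule protein related to cathelicidin, had 10, 0, 5 and 9 in WT naive, knockout-labelled naive, WT HDM and knockout-labelled HDM skin. The measured ones numbered 4, with 3 higher and 1 lower in each genotype. Of all measured genes 14.5% were higher and 12.7% lower in WT skin, and 21.7% and 18.2% in knockout-labelled skin. The part of neutrophils in the Lcn2, Camp and Ltf values was not tested.

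All 18 macrophage and monocyte markers were measured, and none stood at 0. They summed to 729 RPM in WT naive, 1643 in knockout-labelled naive, 1482 in WT HDM and 1192 in knockout-labelled HDM skin. With HDM 11 were higher and 1 lower (Lyz1) in WT skin (median 1.27), beside 14.5% and 12.7% of all measured genes. In knockout-labelled skin 0 were higher and 5 lower (-0.16), beside 21.7% and 18.2%. Itgam, an integrin of myeloid cells, was 7.30-fold higher with HDM in WT skin (5.62 to 9.62), and the monocyte marker Ly6c2 was 4.50-fold lower in knockout-labelled skin (3.46 to 5.92). In naive skin 8 were higher in the knockout-labelled library and 0 lower, beside 13.6% and 17.1%. Mrc1, the mannose receptor, was 5.39-fold higher there (4.88 to 5.97). Under HDM 0 of the 18 were higher in the knockout-labelled library and 3 lower (median -0.48), beside 3.06% and 4.66%. The part of macrophages and monocytes in the Lyz2 values was not tested.

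Markers of activated keratinocytes, which also make inducible defensins and Lcn2, were higher in both HDM libraries. Of 11 measured, 10 were higher and 0 lower in WT skin (median 6.85), beside 14.5% and 12.7% of all measured genes. The same counts held in knockout-labelled skin (6.80), beside 21.7% and 18.2%. The keratin gene Krt6b had 37 and 21 reads in the WT and knockout-labelled naive libraries against 34298 and 30134 in the HDM ones. Under HDM 3 of the 11 were lower in the knockout-labelled library and 0 higher (median -0.85), beside 4.66% and 3.06%. The part of these cells in the defensin values was not tested.

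**Figure D4:**
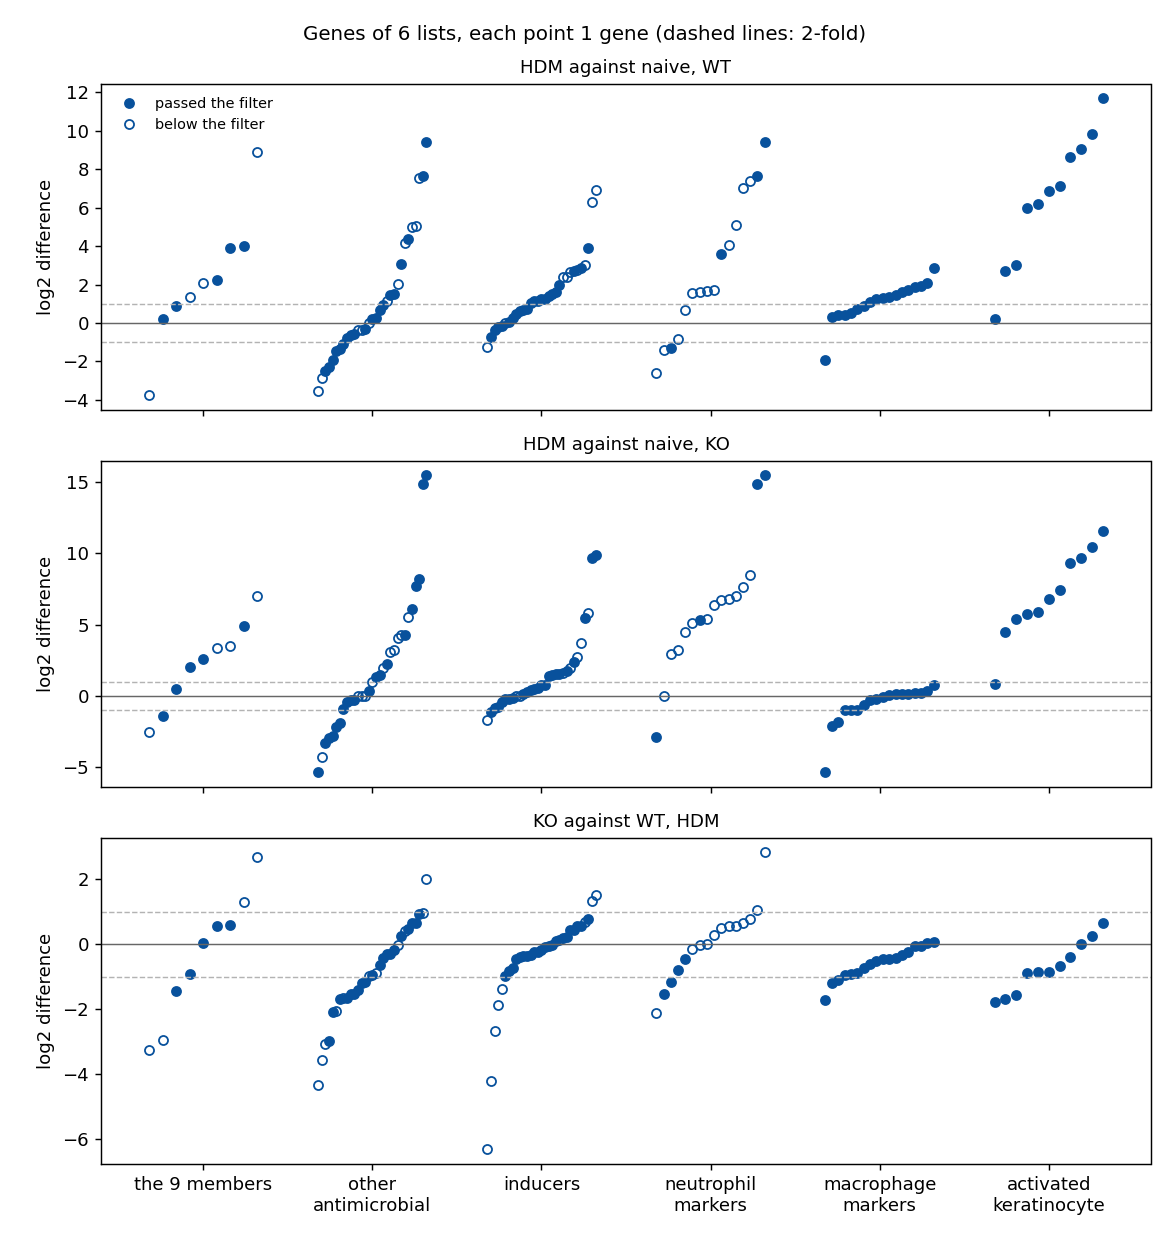
Log2 differences (y axis) of the genes of 6 lists (x axis) in 3 comparisons, each point 1 gene with a read in any library, sorted within its list; filled points passed the expression filter and open points did not, and dashed lines mark 2-fold. Activated keratinocyte genes lie above the upper line in both HDM comparisons except 1 gene each, and in knockout-labelled against WT skin under HDM no inducer that passed the filter lies outside the lines.

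An additive model of treatment and genotype over all 4 libraries, fitted with limma to the 11600 measured genes, gave the only p-values. It leaves each gene 1 residual degree of freedom and assumes that both genotypes respond alike, so a gene's residual is its departure from that. The standard errors and p-values rest mostly on other genes of like level, since the limma prior holds 7.95 of 8.95 degrees of freedom. The HDM term passed an adjusted p of 0.05 for 2 of 5 members, against 4.12% of genes, and with a pseudocount of 8 for 2 of 5 against 4.53%. Lcn2 was higher by 4.40 ± 0.44 (SE) on the log2 scale, with a limma adjusted p of 0.00102. Defb1 was higher by 2.38 ± 0.49, with a limma adjusted p of 0.0334. Defb6 (1.45 ± 0.36, limma adjusted p = 0.0618), Defb14 (2.23 ± 0.73, 0.137) and Lyz2 (-0.63 ± 0.64, 0.634) did not pass. Lcn2, Defb1, Defb6 and Defb14 were higher with HDM in both genotypes. Without an intensity trend 0 of 5 members passed in limma, against 0.129% of genes, and the limma adjusted p of Lcn2 was 0.186. In that setting 3 of the 5 members and 1720 of the 11600 genes had an unadjusted limma p under 0.05. Without the filter on low values 5 of 9 passed, against 7.33% of genes, among them Defb3 (limma adjusted p = 0.00359). For the genotype term limma called 0 members and 0 of all genes (0%), with 0 members and 381 genes at an unadjusted p under 0.05. Members called for genotype were also 0 with a pseudocount of 8 (0.0172% of genes) and without the filter (0.386%). Treatment and sex-linked transcripts cannot be told apart in this fit either.

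The measured genes with profiles nearest to each measured member were found by Euclidean distance between log2 values centred over the 4 libraries. Closest to Defb6 were Shisa2 (distance 0.11), Cux1 (0.11) and Ero1l (0.12). Closest to Lyz2 were Zhx3 (0.12), Heatr5a (0.13) and Mgp (0.14). Defb1 lay next to Gm8580 (0.21), the desmosomal cadherin gene Dsg3 (0.24) and Cbr3 (0.26). Lcn2 had Lrrc15 (0.43), Fhl2 (0.55) and Vsig8 (0.59) as its nearest genes, and Defb14 had Fes (0.39), Serpinb12 (0.60) and Slco4a1 (0.60). No measured member was among the 3 nearest genes of another. With 4 points per profile these distances describe the libraries only.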

How the data were processed

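Per the labels' protocols, skin RNA was isolated in Trizol and the QuantSeq 3′ kit took 500 ng of it. The submitters' processing notes name Bowtie2, bedtools and mm10, without versions or roles. Normalization and annotation: not given in the sources used here. Log2 values per gene symbol were deposited by the authors, 1 table per library. Undoing the log2 and the added 1 left low values that were multiples of 1.056, 0.936, 1.078 and 0.939 in WT naive, KO naive, WT HDM and KO HDM. Division by these steps gave whole reads within 0.1 for 99.0%, 95.9%, 98.8% and 98.7% of genes with 1 to 200 reads, and values under the midpoint between 0 and 1 read were taken as 0. Symbols on several lines (35 symbols, 79 lines) were left out.

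Members and gene lists were chosen with earlier results of these data known. The named genes are all members, other beta-defensins with a read, and, per list and comparison, up to 2 measured genes at each end past 2-fold, of which the text gives a part. Intervals cover counting error only, since no source used here mentions molecular identifiers, and reads then need not be independent molecules. Single-library comparisons carry no p-value. The additive fit used limma 3.58.1 in R 4.3.3 with an intensity trend (prior 7.95 degrees of freedom) and Benjamini-Hochberg adjustment over all measured genes, and was tested on simulated data. Other steps used Python 3.11.15, scipy 1.17.1 and Biopython 1.88. Gene positions and transcripts are from GENCODE on mm10. Alternatives were other scalings, a pseudocount of 8, no filter, and limma without a trend.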

Additional observations from a re-analysis of the deposited data

Results flagged for a closer look

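The HDM differences of Lyz2 had opposite signs in the genotypes, with log2 values of 0.19 in WT and -1.45 in knockout-labelled skin, a difference of -1.65 between them. The WT fold of 1.14 had a counting interval of 0.912 to 1.44, which includes 1, so only the knockout-labelled pair differed beyond counting error. On scaled reads the difference between genotypes was -1.66, with a counting interval of -2.11 to -1.20. The difference was not tested across animals, since each group has 1 library.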

How the results depend on the processing

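Scaling reads to equal library totals, scaling by the median ratio, or a pseudocount of 8 left every count of the 5 measured members within 1.5 times its value, and the sign of no member's difference past 2-fold was reversed. Equal totals shifted the median of all measured genes between genotypes to 0.09. A pseudocount of 8 reduced differences that rest on few reads, such as Camp with HDM in WT skin, from -3.74 to -1.37. It also ended the 2-fold difference of Defb3 between naive libraries, of Ltf with HDM in WT skin, and of Camp and Ltf between genotypes under HDM. Without the filter the counts cover 9 members: with HDM 6 higher and 1 lower in WT, 6 higher and 2 lower in knockout-labelled skin (median 2.55; 1.57 if 3 reads replace each 0), and between genotypes 2 higher and 2 lower in naive and 2 higher and 3 lower in HDM skin. More members are counted there by construction. Requiring the whole counting interval past 2-fold kept every count within 1.5 times. In the additive fit the members called for HDM numbered 2, against 0 without an intensity trend and 5 without the filter; the cause was not tested. No paired analysis was possible because the labels carry no replicate numbers and each group has 1 library. Leaving out a library would leave the fit without residual degrees of freedom and was not run. Depth limits Camp, Ltf and Defb4, with at most 39, 10 and 98 reads.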
